A study of Marchantia polymorpha with 6 samples.

Results

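MpGPAT6c (Mp7g00920) and MpGPAT6d (Mp4g03780) are 2 of the 4 glycerol-3-phosphate acyltransferase genes with a GPAT symbol in the liverwort Marchantia polymorpha, and 2 of 19472 genes counted. They were chosen by their IDs, because an earlier analysis of these libraries had MpGPAT6c higher and MpGPAT6d lower in plants grown with arsenite. Their difference between the groups is therefore given as a description, without a test. Poly(A) RNA was sequenced from thalli, the flat plant body, in 6 samples of the genotype labelled Cam1, a wild-type accession, grown at 21 °C. The medium of 3 samples was half-strength Gamborg to which 2.5 µM sodium arsenite, the trivalent oxyanion of arsenic, had been added, and 3 control samples grew on half-strength Gamborg alone. The sources used here give neither the length of the treatment nor the number of plants per sample, and p-values measure the spread between these samples, which may be technical. No transgene or deletion is named for either group.

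Cutin is the polyester that, with waxes, forms the cuticle over the aerial surface of land plants. Its building blocks are fatty acids that are activated to acyl-CoA, hydroxylated by cytochrome P450s and joined to glycerol by acyltransferases of the GPAT family. In Arabidopsis, GPAT6 also removes the phosphate, and the resulting monoacylglycerol is exported and linked into the polymer outside the cell. The roles of the Marchantia genes are read here from their symbols.

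Libraries held 26579324 to 31573867 reads with arsenite and 26691102 to 47532310 reads in controls. The sperm protamine gene MpPRM had 0 to 1 read per library. MpNOP1, a gene of air chamber formation in the thallus, had 105 to 142 CPM with arsenite and 84.6 to 114 CPM in controls. CPM are reads per 1000000 in genes that passed the low-count filter, scaled by TMM factors. MpDUO1, the other marker of gametangia and sperm with a symbol, had 1.08 to 1.65 CPM with arsenite and 1.68 to 3.22 CPM in controls. Its groups did not overlap, as for 28.2% of all tested genes, and edgeR's quasi-likelihood test did not call it (adjusted p = 0.178). These are bulk samples, in which fewer cells of a type and less RNA per cell cannot be told apart.

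MpGPAT6c was about 2.66-fold higher with arsenite. It had 113, 85.0 and 78.0 CPM in arsenite replicates 1, 2 and 3, and 35.0, 38.1 and 30.7 CPM in control replicates 1, 2 and 3. The groups did not overlap, and the lowest arsenite library stood 2.05-fold above the highest control library. Replicate 1 was the highest of the arsenite libraries, 1.45-fold above the lowest of them, whereas the highest and lowest controls differed 1.24-fold. These levels rest on 3544, 2512 and 2030 reads with arsenite and 1707, 998 and 979 reads in controls. The mean was 92.0 ± 18.6 CPM with arsenite and 34.6 ± 3.73 CPM in controls (SD, n = 3 each), which gave a log2 fold change of 1.41 ± 0.17 (SE). Among 13544 tested genes this was the 314th highest fold change, and without arsenite replicate 1 it was 1.26.

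MpGPAT6d was about 1.91-fold lower with arsenite. It had 25.6, 31.9 and 28.1 CPM in arsenite replicates 1, 2 and 3, and 61.1, 53.5 and 49.1 CPM in control replicates 1, 2 and 3. Here too the groups did not overlap, the lowest control library standing 1.54-fold above the highest arsenite library. Within a group the libraries lay close together, with a highest-to-lowest ratio of 1.25 with arsenite and 1.24 in controls. The reads behind these values numbered 802, 942 and 732 with arsenite and 2981, 1401 and 1566 in controls. The mean was 28.5 ± 3.16 CPM with arsenite and 54.6 ± 6.06 CPM in controls (SD, n = 3 each), which gave a log2 fold change of -0.94 ± 0.13 (SE), the 564th lowest of the 13544. For scale, the groups did not overlap for 28.2% of tested genes, 1866 of them (13.8% of those tested) higher and 1956 (14.4%) lower with arsenite, and edgeR's quasi-likelihood test called 276 (2.04%) higher and 290 (2.14%) lower at an adjusted p under 0.05. Nothing is read from these shares about the pair, since this contrast chose it.

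The balance between the 2 genes within a library is given as a description, since their choice by opposite changes fixed its direction. It does not depend on how libraries are scaled. MpGPAT6c made up 81.5%, 72.7% and 73.5% of the reads of the pair in arsenite replicates 1, 2 and 3, against 36.4%, 41.6% and 38.5% of them in control replicates 1, 2 and 3. The exact 95% binomial interval ran from 71.2% to 74.2% for the lowest arsenite share and from 39.6% to 43.6% for the highest control share. These intervals cover counting error only, not the spread between replicates, and are no test of the groups. There were 2.67 to 4.42 reads of MpGPAT6c for each read of MpGPAT6d with arsenite, and 0.573 to 0.712 in controls. On the log2 scale the ratio averaged 1.68 ± 0.41 with arsenite and -0.66 ± 0.16 in controls (SD, n = 3 each), a difference of 2.33, which was 2.10 without arsenite replicate 1. Arsenite replicate 1 combined the highest MpGPAT6c with the lowest MpGPAT6d of all 6 libraries. The sources used here give no transcript lengths, so read shares do not say which of the 2 transcripts is more abundant.

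**Figure D1:**
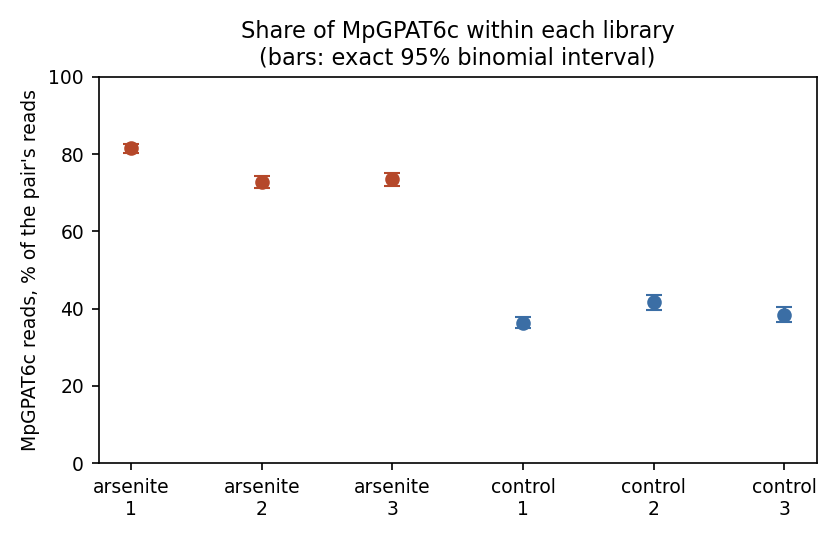
Reads of MpGPAT6c as a percentage of the reads of MpGPAT6c and MpGPAT6d together (y axis) in each of the 6 libraries (x axis). Bars are exact 95% binomial intervals, which cover counting error only. The arsenite libraries lie between 72.7% and 81.5%, and the controls between 36.4% and 41.6%.

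The sum of the pair was 139, 117 and 106 CPM in arsenite replicates 1, 2 and 3, and 96.1, 91.7 and 79.8 CPM in control replicates 1, 2 and 3. It averaged 121 ± 16.6 CPM with arsenite and 89.2 ± 8.42 CPM in controls (SD, n = 3 each), so the gain in MpGPAT6c reads was larger than the loss in MpGPAT6d reads. All 4 GPAT genes together had 244 to 273 CPM with arsenite and 203 to 256 CPM in controls, and here the groups overlapped. Of the family's reads, MpGPAT6c took 35.5% ± 5.71 with arsenite and 15.1% ± 0.191 in controls (SD, n = 3 each), and MpGPAT6d took 11.1% ± 1.87 with arsenite and 23.9% ± 2.89 in controls, without overlap between groups for either gene. The share of MpGPAT6b was also lower without overlap, at 22.8% to 26.7% with arsenite and 37.0% to 42.3% in controls. A lower share was therefore not particular to MpGPAT6d. These shares have a fixed total, so the higher share of MpGPAT6c, which was chosen for its rise, by itself lowers the others. For MpGPAT6a the share was 23.7% to 36.3% with arsenite and 18.4% to 27.2% in controls, and the groups overlapped. Since the handling of reads that fit several copies is not given, counts of such paralogs are uncertain where their sequences are near-identical.

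The other GPAT genes, MpGPAT6a and MpGPAT6b, are those left in the family once the pair was chosen by its values. Nothing is therefore read from how many of them were called. Neither was called by edgeR, against a background of 4.18% of tested genes called in either direction, and 1 of them had an unadjusted p under 0.05, as did 21.1% of all tested genes. MpGPAT6b (Mp7g09780) had 69.7, 65.1 and 59.2 CPM in arsenite replicates 1, 2 and 3, and 87.3, 94.9 and 85.9 CPM in control replicates 1, 2 and 3. All 3 arsenite libraries lay below all 3 controls, with a mean of 64.7 ± 5.29 CPM with arsenite and 89.4 ± 4.86 CPM in controls (SD, n = 3 each). The log2 fold change was -0.47 ± 0.10 (SE), with an adjusted p = 0.0533 in edgeR's test, above the threshold. MpGPAT6b was called with DESeq2 (adjusted p = 0.00535) and in edgeR with library totals as the scaling (adjusted p = 0.0445), but not with voom (adjusted p = 0.0572).

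MpGPAT6a (Mp7g03880) had 64.6, 61.7 and 94.3 CPM in arsenite replicates 1, 2 and 3, and 46.0, 69.8 and 37.3 CPM in control replicates 1, 2 and 3. Control replicate 2 lay above arsenite replicates 1 and 2, so the groups overlapped. The 95% interval of its log2 fold change, 0.53 ± 0.26 (SE), ran from -0.09 to 1.15 (edgeR, adjusted p = 0.304). The spread differed within the family: MpGPAT6a had an SD of 18.0 CPM on a mean of 73.6 CPM with arsenite and of 16.8 on 51.1 CPM in controls, while MpGPAT6c with arsenite was the other group with an SD above 10 CPM.

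**Figure D2:**
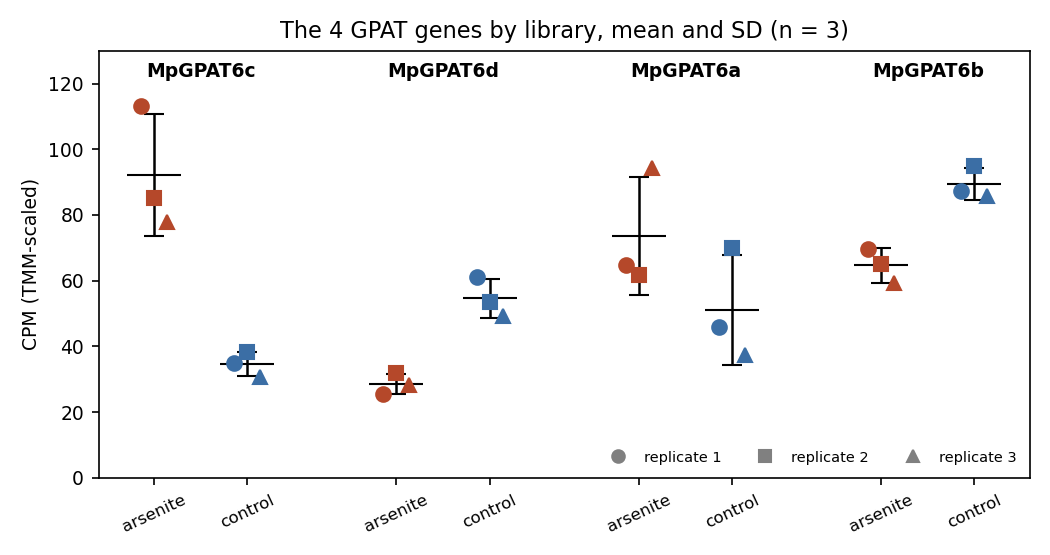
CPM, scaled by TMM factors (y axis), of the 4 GPAT genes in each library, arsenite left of control for each gene; points are libraries, with replicate number by shape, and bars are the mean and SD of 3 libraries. MpGPAT6c is higher and MpGPAT6d and MpGPAT6b are lower in every arsenite library than in any control, while the groups overlap for MpGPAT6a.

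The rest of the cuticle pathway was examined through lists of gene symbols. Of 75 tested genes outside the GPAT family, edgeR called 2 higher and 2 lower with arsenite, 5.33% against 4.18% of all tested genes, and 71 did not pass. Fold changes were positive for 36 and negative for 39, and their median log2 fold change was -0.02, beside -0.004 over all tested genes. Each of the 4 calls was lost with single libraries left out, as given below.

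Upstream of the GPAT step, MpLACS, an acyl-CoA synthetase that activates fatty acids, had 230, 194 and 171 CPM in arsenite replicates 1, 2 and 3, and 175, 195 and 175 CPM in control replicates 1, 2 and 3. The groups overlapped, and its log2 fold change was 0.13 ± 0.13 (SE; edgeR, adjusted p = 0.611). Of 26 fatty acid hydroxylases of the P450 families CYP77, CYP86, CYP94 and CYP704, 16 were tested and 0 were called by edgeR or voom, while DESeq2 called 1 higher and 3 lower, beside 10.2% of all genes to which it gave an adjusted p. Over all genes voom called 3.92%. In edgeR, 2 of the 16 were higher and 4 lower at an unadjusted p under 0.05, beside 21.1% of all tested genes in either direction. The 10 that failed the low-count filter had at most 12 reads in a library. The tested hydroxylases together had 194.9 to 275.5 CPM with arsenite and 294.2 to 542.2 CPM in controls. Most of this sum came from MpCYP704-like5, singled out for its level after its values were seen. It had 107 to 204 CPM with arsenite and 200 to 448 CPM in controls, and its groups overlapped (log2 fold change -0.96 ± 0.34, adjusted p = 0.173). Symbols alone place these P450s, and CYP704 enzymes of other plants also serve the spore and pollen wall.

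Among the hydroxylases, MpCYP704K1 had 16.7, 14.6 and 22.2 CPM with arsenite, against 26.4, 31.8 and 24.8 CPM in controls (log2 fold change -0.63 ± 0.18, adjusted p = 0.109). MpCYP704-like9 and MpCYP704-like1 had log2 fold changes of -1.62 ± 0.39 and 0.97 ± 0.29, with adjusted p = 0.0713 and 0.113. For each of these P450s, named because their p was the smallest of the list, the groups did not overlap. Of all 16 tested hydroxylases, groups did not overlap for 2 higher and 2 lower, beside 28.2% of all tested genes in either direction. MpCYP86H1, of the family of omega-hydroxylases, had 5.74, 12.4 and 15.6 CPM with arsenite, against 19.4, 6.99 and 35.3 CPM in controls, a spread within groups that left the log2 fold change at -0.87 ± 0.59 (adjusted p = 0.432). MpCYP77A6, of the family that hydroxylates within the chain in Arabidopsis, had 0.830 to 1.02 CPM with arsenite and 0.902 to 1.87 CPM in controls, with a log2 fold change of -0.68 ± 0.35 (adjusted p = 0.318). MpCYP86H1, MpCYP77A6, MpCUS and MpBDG1 were singled out after their values were seen.

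Downstream of the GPAT step, 45 tested genes of export and assembly, mostly ABCG transporters and lipid transfer proteins, included 1 called higher and 2 called lower, which is 6.67% of them beside 4.18% of all tested genes, and 42 that did not pass. ABCG transporters carry many other substrates besides cutin precursors. MpABCG5 rose to 0.989, 2.13 and 1.81 CPM with arsenite, against 0.369, 0.459 and 0.220 CPM in controls (log2 fold change 2.23 ± 0.43, adjusted p = 0.0395). MpLTP-like63, a lipid transfer protein, fell to 0.351, 0.677 and 0.961 CPM with arsenite, against 3.20, 3.02 and 5.58 CPM in controls (log2 fold change -2.57 ± 0.44, adjusted p = 0.0290). MpABCG1, known in Marchantia from the membrane of oil bodies, fell to 9.13, 14.2 and 14.5 CPM with arsenite, against 22.7, 29.2 and 34.1 CPM in controls (log2 fold change -1.18 ± 0.23, adjusted p = 0.0398). MpABCG14 had 0.798, 1.69 and 1.11 CPM with arsenite and 3.48, 5.54 and 2.51 CPM in controls (log2 fold change -1.67 ± 0.41, adjusted p = 0.0713).

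Each of these 3 calls held without 1 of the 6 libraries and was lost without any other. MpABCG5 kept its call without arsenite replicate 1 (adjusted p = 0.0371), and MpLTP-like63 and MpABCG1 kept theirs without arsenite replicate 3 (adjusted p = 0.0286 and 0.0473). MpABCG5 lost its call without arsenite replicates 2 and 3 (adjusted p = 0.150 and 0.0639) and without control replicates 1, 2 and 3 (adjusted p = 0.129, 0.0895 and 0.110). MpLTP-like63 had adjusted p = 0.0543 and 0.122 without arsenite replicates 1 and 2, and 0.0798, 0.0674 and 0.0738 without control replicates 1, 2 and 3. MpABCG1 had adjusted p = 0.0610 and 0.122 without arsenite replicates 1 and 2, and 0.0761, 0.114 and 0.109 without control replicates 1, 2 and 3. MpABCG5 also had adjusted p = 0.0716 with the replicate number as a block.

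At the polymer itself, MpCUS, named for cutin synthase, the enzyme that links monoacylglycerols in tomato, had 22.1, 31.6 and 31.7 CPM with arsenite, against 55.2, 31.3 and 39.0 CPM in controls. Control replicate 2 lay within the arsenite range, and the log2 fold change was -0.56 ± 0.24 (SE; edgeR, adjusted p = 0.239). MpBDG1, named for BODYGUARD, a hydrolase-like protein needed for the Arabidopsis cuticle, had 18.7, 18.3 and 17.1 CPM with arsenite, against 22.6, 15.3 and 22.4 CPM in controls (log2 fold change -0.16 ± 0.17, adjusted p = 0.638). Neither gene was separated between the groups.

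Waxes share the pool of fatty acids with cutin. The list for this part holds 12 tested genes with symbols tied to elongation, reduction or wax, not all of them enzymes of those steps. Of these, edgeR called 1 higher (8.33%) and 0 lower, beside 4.18% of all tested genes, and 11 did not pass. DESeq2 and voom gave the same counts, beside 10.2% and 3.92% of all genes to which they gave an adjusted p. At an unadjusted p under 0.05 in edgeR, 3 were higher and 1 lower, beside the 21.1% of all tested genes. MpFAE3, a fatty acid elongase by its symbol, rose to 73.4, 81.7 and 103 CPM with arsenite, against 47.5, 45.4 and 53.2 CPM in controls (log2 fold change 0.82 ± 0.15, adjusted p = 0.0324). All arsenite libraries lay above all controls, but the call was lost without any one control replicate (adjusted p = 0.119, 0.104 and 0.0756 without replicates 1, 2 and 3) or without arsenite replicate 2 (adjusted p = 0.110). Its neighbour in the numbering, MpFAE2, stood at a log2 fold change of 0.26 ± 0.09 (adjusted p = 0.142), and MpCER7, named for an Arabidopsis exosome subunit that acts on wax, one of -0.41 ± 0.16 (adjusted p = 0.193). The list's median log2 fold change was 0.01. In glycerolipid synthesis, 1 gene carried a listed symbol: the phosphatidate phosphatase MpPAH, with a log2 fold change of -0.05 ± 0.12 (adjusted p = 0.855). For de novo fatty acid synthesis and for cuticle regulators no listed symbol was found, and they were not analysed here.

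**Figure D3:**
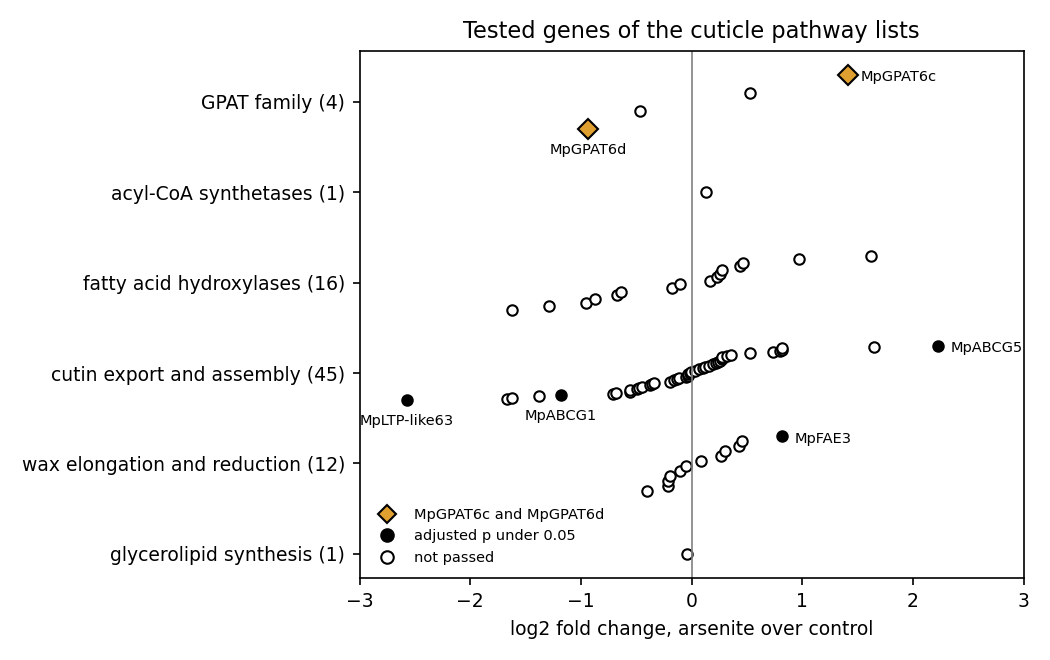
Log2 fold change, arsenite over control (x axis), of every tested gene in each pathway list (rows, with the number tested; height within a row only spreads the points). Diamonds are MpGPAT6c at 1.41 and MpGPAT6d at -0.94, filled circles the 4 other genes with an adjusted p under 0.05, and open circles the genes that did not pass.

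Of 4 markers of oil body cells, the terpenoid-storing cells of the thallus, 2 were called lower with arsenite, beside 2.14% of all tested genes called lower. The summed level of the 4 was 42.1 to 69.5 CPM with arsenite and 76.2 to 109 CPM in controls, and all 4 markers, MpC1HDZ, MpERF13, MpSYP12B and MpABCG1, had negative log2 fold changes, of -0.56, -1.08, -1.41 and -1.18. MpSYP12B and MpABCG1, which is also counted among the export genes, passed edgeR's test (adjusted p = 0.0462 and 0.0398). MpC1HDZ and MpERF13 did not (adjusted p = 0.253 and 0.0805), the groups overlapped for MpC1HDZ, and none of the 4 was at 0 in any library. The call of MpSYP12B was lost with each of the 6 libraries left out in turn (adjusted p = 0.0640 to 0.146) and with the replicate number as a block (adjusted p = 0.0834), and that of MpABCG1 without any one library other than arsenite replicate 3 (adjusted p = 0.0610 to 0.122). The part of these cells in the lower MpGPAT6d was not tested.

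The genes with the most similar profiles were sought among 2127 other genes that carry a symbol and average 5 CPM or more, by the root mean square distance of centred log2 CPM over the 6 samples. Because the members differ between groups, such genes differ as well, and their fold changes are given without a test. The closest to MpGPAT6c was MpTIP2, a tonoplast aquaporin, at a distance of 0.089 log2 units. MpTIP2 had 135, 94.6 and 85.4 CPM in arsenite replicates 1, 2 and 3, and 45.0, 44.7 and 32.7 CPM in control replicates 1, 2 and 3. In both genes arsenite replicate 1 was highest and control replicate 3 lowest. Next came MpGH16.30, of a family of cell wall glycosidases, MpHA2, a plasma membrane proton pump, MpPTB4, placed with phosphate transporters by its symbol, and MpCupin84, at distances of 0.16, 0.17, 0.20 and 0.25. Their log2 fold changes were 1.48, 1.13, 1.39 and 1.36, and each was highest in arsenite replicate 1.

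The closest to MpGPAT6d was MpDFR-like18, named for dihydroflavonol reductase, at a distance of 0.12. It had 10.6, 12.3 and 12.0 CPM in arsenite replicates 1, 2 and 3, and 21.0, 22.1 and 21.8 CPM in control replicates 1, 2 and 3, a log2 fold change of -0.89. MpDIR37, a dirigent protein, which steers the coupling of phenolic radicals, MpDOXC10, of the class of oxoglutarate-dependent dioxygenases, MpGT47.6, a glycosyltransferase, and MpH4e, a histone gene by its symbol, followed at 0.17, 0.17, 0.18 and 0.19. Their log2 fold changes were -1.22, -0.77, -0.77 and -0.72. None of the cuticle genes was among the 5 closest to either member. Outside the GPAT family they make up at most 75 of the 2127 candidates, so nothing is read from their absence.

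**Figure D4:**
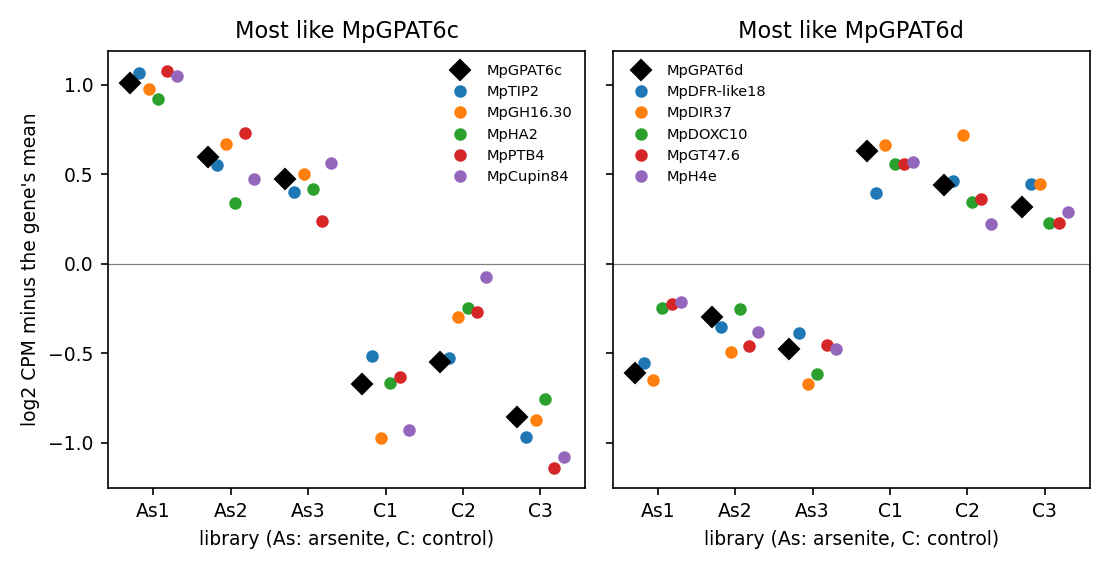
Log2 CPM minus each gene's mean over 6 libraries (y axis) for MpGPAT6c (left) and MpGPAT6d (right), as diamonds, with the 5 genes of most similar profile to each, as coloured circles, in the arsenite (As) and control (C) libraries (x axis). The nearest gene to MpGPAT6c, MpTIP2, lies 0.089 log2 units away on average (root mean square), and the nearest to MpGPAT6d, MpDFR-like18, 0.12.

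The members lie on different chromosomes, MpGPAT6c on 7 and MpGPAT6d on 4. No gene span in the table of names overlapped either of them among the 3 nearest genes on each side. Of the 6 nearest to MpGPAT6c, 4 were tested and 0 were called by edgeR, DESeq2 or voom, with 1 at an unadjusted p under 0.05 in each, beside 21.1%, 18.6% and 20.9% of all genes in edgeR, DESeq2 and voom. The adjacent gene Mp7g00930 had a log2 fold change of 0.01 ± 0.10, which took the other sign in some alternatives. On the other side, Mp7g00910 had 1.37, 1.29 and 2.19 CPM with arsenite, against 0.799, 0.955 and 0.815 CPM in controls, without overlap (log2 fold change 0.91 ± 0.31, edgeR adjusted p = 0.156). Of the 6 nearest to MpGPAT6d, 3 were tested in edgeR and voom, while DESeq2 gave all 6 an adjusted p. Of these neighbours 0 were called by any of these tools, with 0 at an unadjusted p under 0.05 in edgeR and DESeq2 and 1 in voom. The adjacent Mp4g03770 stood at a log2 fold change of 0.28 ± 0.19 (edgeR adjusted p = 0.444), opposite in sign to that of MpGPAT6d. The 3 neighbours that edgeR did not test had at most 15 reads in a library.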

How the data were processed

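Each sample has 1 deposited file of read counts per gene, whole numbers that the authors made with htseq-count on the Galaxy platform, per the file names. RNA was extracted with a Qiagen plant kit, per the labels' protocols. The sources used here do not give the aligner, versions, build, annotation, strand setting or handling of multiply placed reads, so reads from overlapping genes on opposite strands cannot be told apart. Each file held 19472 gene IDs and no line for unassigned reads. Symbols were taken from the gene table of assembly MpTak2_v7.1, matched by locus number (17671 of 18391 tags), and 2597 of 13544 tested genes had a symbol. No coordinates are printed, since the build of the files is not given.

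Counts were tested with edgeR 4.0.16 in R 4.3.3 (quasi-likelihood test, group as the only term, TMM factors, default low-count filter by group), with a threshold of 0.05 after Benjamini-Hochberg adjustment across the whole table; every adjusted p without another tool named is from this test. Log2 fold changes are arsenite over control, with SE equal to the fold change over the root of F. A pseudocount of 0.5 CPM was used for profile distances. Totals were 26579324 to 47532310 reads, and replicates always differed by more than sampling noise (chi-square per degree of freedom of at least 41.3). The procedure was tested on simulated data. Alternatives used DESeq2 1.42.0, voom in limma 3.58.1, other scalings, filters and thresholds, a replicate block and each library left out.

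Members and lists were chosen with earlier results of these data known. Lists were symbol patterns, and MpCYP770 was left out of the hydroxylases as another family. Named genes were all GPAT genes, from each list any called gene and the 3 of smallest p averaging 1 CPM or more, the 5 most similar profiles and the 3 nearest genes on each side; others are marked where they appear or fill out a marker list.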

Additional observations from a re-analysis of the deposited data

How the results depend on the processing

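The log2 fold changes of MpGPAT6c (1.26 to 1.53) and MpGPAT6d (-1.02 to -0.83) kept their direction in all 13 alternatives run for each, and the difference in their log2 ratio stayed between 2.10 and 2.46 with a library left out. The members were chosen by this direction in the same libraries, so these ranges only describe how far the sizes moved. Over all genes, 16 to 233 were called higher and 23 to 228 lower with 1 library left out. DESeq2 called 821 higher and 709 lower, a threshold of 0.01 gave 23 and 34, and the replicate block 145 higher and 219 lower. Among the cuticle genes outside the GPAT family (75 tested), 0 to 4 were called with 1 library left out and 0 at 0.01. DESeq2 called 12 of these cuticle genes, beside 10.2% of all genes to which it gave an adjusted p. Of MpGPAT6a and MpGPAT6b, 1 was called with DESeq2 and 1 with library totals as the scaling. Same-numbered libraries did not deviate together (correlations of 0.02, -0.14 and 0.19 for numbers 1, 2 and 3), so the block only shares numbers. Only arsenite replicate 3 correlated best with its own number. Between unlike numbers the correlations ran from -0.48 (arsenite replicate 1 with control replicate 3) to 0.42 (arsenite replicate 1 with control replicate 2). Signs changed only at values near 0: MpPAH was 0.034 without arsenite replicate 3, and Mp7g00930 was -0.012 with library totals and -0.0051 to 0.063 with a library left out. The cause of these changes was not tested. The ratio of the pair per kilobase of coding length was not run, because no transcript length was at hand. Genes near 1 CPM rest on few reads: MpCYP77A6 had 24 to 54 in a library.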
